A study of Saccharomyces cerevisiae with 4 samples.

Results

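The mitochondrial respiratory chain and ATP synthase of budding yeast were followed through the 59 nuclear genes on the arrays whose names mark them as COX, QCR, ATP or SDH genes, together with CYC1, CYC7, CYT1, COR1, RIP1, NDI1, NDE1 and NDE2. They are 59 of 5449 measured S. cerevisiae genes, and the rule uses their names and no measured value, although it was set with earlier results of these data known. 39 encode structural subunits or electron carriers and 20 encode assembly factors. Each is read by 1 probe set. COX5B was left out because it lies on chromosome IX, and 2 further genes of the name rule, COX26 and SDH9, are not analysed here. The 7 mitochondrially encoded subunit genes are not analysed here either.

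The 4 samples form 2 groups of 2 arrays. The deletion cells are strain Y3501, mating type a, with WPL1 replaced by a KAN marker (wpl1∆::KAN). Their controls are strain K699, mating type a, with no further change in the labels. Wpl1, whose gene appears here under the name RAD61, is the yeast relative of Wapl and helps to release the cohesin ring from chromosomes. Cultures in YP medium with 2% glucose were harvested during exponential growth, at an optical density (OD600) of 0.3. Total RNA was read on Affymetrix Yeast Genome 2.0 arrays. Replicates 1 of both genotypes share a date tag in the labels, and replicates 2 share a later one. Separate cultures are not mentioned, so p-values between genotypes reflect array-to-array spread within a genotype, some of it possibly technical. In the comparison of replicates, each side is 1 deletion and 1 wild type array that share a date tag. Its p-values reflect the spread between those 2 arrays and not the spread between dates.

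In yeast mitochondria, single-subunit NADH dehydrogenases and succinate dehydrogenase (complex II) pass electrons to ubiquinone. The cytochrome bc1 complex (complex III), the mobile carrier cytochrome c and cytochrome c oxidase (complex IV) carry them on to oxygen. ATP synthase uses the resulting proton gradient. Budding yeast has no multi-subunit complex I. Most subunits are encoded in the nucleus, and many of these genes are activated by the CCAAT-binding Hap complex and held down while glucose is plentiful. Assembly factors insert copper, heme and newly made subunits without being part of the finished enzymes.

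Median log2 values over all genes were 8.43 and 8.25 in the deletion arrays, against 8.38 and 8.34 in the wild type arrays. Background was set at the 95th percentile of 1746 probe sets for fission yeast, at log2 values of 5.79 to 6.10. Of the 59 genes, 58 lay above it in all 4 arrays. The exception was NDE2, at 6.05 in deletion replicate 2. RAD61 had 3.96 and 4.44 in deletion replicates 1 and 2, against 6.43 and 6.55 in wild type replicates 1 and 2, and both deletion values were below background. RAD61 was at least 1.46-fold lower in them, with an adjusted p of 1 in limma and 0.141 with the replicate number as a block. Of the 5 alpha-cell markers, STE3 and HMLALPHA1 were not above background in any array, while MF(ALPHA)2 and SAG1 were above it in all 4 arrays and MF(ALPHA)1 in 3. SAG1 had 7.24 and 7.16 in deletion replicates 1 and 2, against 6.80 and 7.63 in wild type replicates 1 and 2. All 6 a-cell markers were above background in all 4 arrays. COX5B, on chromosome IX, was highest in deletion replicate 2, with 7.88 and 8.95 in deletion replicates 1 and 2, against 8.08 and 8.01 in wild type replicates 1 and 2, and no chromosome IX gene is among the 59.

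No gene of the respiratory chain or ATP synthase passed the test between genotypes. RAD61, the deleted gene, did not pass either, so the test cannot show that smaller differences are absent. Most of the 59 differences lay above 0. 48 of 59 had a mean difference above 0, against 43.6% of all genes, and their median log2 difference was 0.12, against -0.03 for all genes. 32 of 59 were above 0 in both replicates and 7 below 0 in both, where 21.3% and 26.9% of all genes were. In limma, 0 of 59 genes were higher and 0 lower at an adjusted p under 0.05 (0% of all genes in each direction). At an unadjusted p under 0.05 there were also 0 of 59, against 0.0918% of all genes higher and the same percentage lower. With the replicate number as a block, 0 passed after adjustment and an unadjusted p under 0.05 was reached by 4 of 59 in the higher direction and 0 in the lower, against 1.52% and 1.34% of all genes. These 4 were CYC1, SDH7, ATP12 and COX17, each with an adjusted p of 0.996. The SEs given with genotype differences come from the unblocked fit and include the replicate difference.

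The 2 cytochrome c isoforms were ordered differently across the arrays. CYC1 encodes isoform 1, the main form in growing cells. Its log2 values were 11.28 and 11.37 in deletion replicates 1 and 2, against 10.83 and 11.03 in wild type replicates 1 and 2. Both deletion arrays were above both wild type arrays, by 0.45 in replicate 1 and 0.34 in replicate 2, and the log2 difference was 0.40 (SE 0.24). CYC7, the isoform associated with low oxygen, had 8.10 and 8.36 in deletion replicates 1 and 2, against 8.13 and 8.44 in wild type replicates 1 and 2. Its order followed the replicate and not the genotype, with a difference of -0.06 (SE 0.26). The difference of CYC1 exceeded that of CYC7 by 0.46 ± 0.04 (SD, n = 2 replicate pairs), a value given without a test. The 4-array plot of named genes shows both isoforms.

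**Figure D1:**
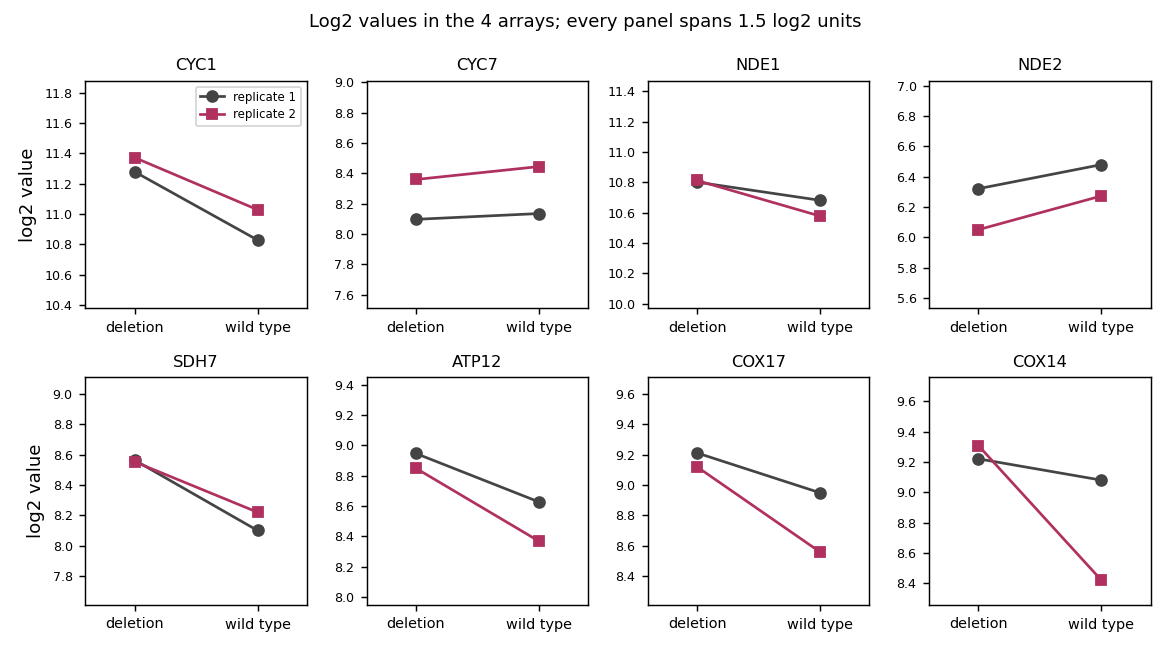
Log2 value (vertical axis, each panel spanning 1.5 log2 units) of 8 genes in deletion (left) and wild type (right) arrays, with lines joining the arrays of replicate 1 and of replicate 2. CYC1, SDH7, ATP12 and COX17 lie higher in the deletion in both replicates, CYC7 is split by replicate, and COX14 is lowest in wild type replicate 2 at 8.42; no gene passed the adjusted test.

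The NADH dehydrogenases did not share a direction. NDE1, the external enzyme that oxidises cytosolic NADH, had 10.80 and 10.81 in the deletion, against 10.68 and 10.58 in wild type (replicates 1 and 2). The groups did not overlap, and the difference was 0.18 (SE 0.23). NDE2, its paralogue, had 6.32 and 6.05 in the deletion, against 6.48 and 6.27 in wild type, close to background, and a difference of -0.19 (SE 0.25). The difference of NDE1 exceeded that of NDE2 by 0.37 ± 0.13 (SD, n = 2 replicate pairs). NDI1, the internal enzyme that oxidises matrix NADH, had 9.53 and 9.19 in the deletion, against 9.53 and 8.69 in wild type. Wild type replicate 2 was lowest, and the difference of 0.25 (SE 0.35) was 0.000421 in replicate 1 and 0.50 in replicate 2.

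Of the complex II subunits, SDH1 and the 2 membrane anchors lay near 0 and SDH2 above it. SDH1, the flavoprotein subunit, had 9.62 and 9.62 in the deletion, against 9.65 and 9.49 in wild type, and its groups overlapped. SDH2, the iron-sulfur subunit, differed by 0.14 (SE 0.31), SDH3 by -0.06 (SE 0.23) and SDH4 by -0.01 (SE 0.31), the last 2 being the anchors. SDH2 was at 0.21 in replicate 1 and 0.06 in replicate 2. The median of the 4 structural genes was 0.02. The 4 assembly factors were all above 0, with a median of 0.30. SDH7, an assembly factor, had 8.56 and 8.55 in the deletion, against 8.10 and 8.22 in wild type. Its deletion arrays were nearly equal and above both wild type arrays, with a difference of 0.40 (SE 0.23). SDH8, a chaperone of the flavoprotein, had 9.38 and 8.91 in the deletion, against 9.13 and 8.53 in wild type. It was above 0 in both replicates, at 0.25 and 0.38, but the replicates differed by more than the genotypes and the groups overlapped. SDH5, needed for attaching FAD to Sdh1, was at 0.01 in replicate 1 and 0.54 in replicate 2. SDH6, another assembly factor, differed by 0.02 (SE 0.25), with -0.12 in replicate 1 and 0.15 in replicate 2.

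In complex III, 8 of 9 subunit genes were above 0, with a median log2 difference of 0.08, while 6 of 9 had opposite signs in the 2 replicates. CYT1, the cytochrome c1 subunit, had 10.79 and 10.68 in the deletion, against 10.64 and 10.35 in wild type. It was the only gene of the 9 whose deletion arrays lay above both wild type arrays, where 5.32% of all genes had this order. Its difference was 0.24 (SE 0.24). The core subunit QCR2 differed by 0.12 (SE 0.25), the small subunit QCR8 by 0.09 (SE 0.24) and the Rieske iron-sulfur protein RIP1 by 0.08 (SE 0.25). QCR7 differed by -0.12 (SE 0.30), the one gene of the complex below 0. These 4 genes had overlapping groups.

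In complex IV, 7 of 8 structural genes were above 0, and 6 were so in both replicates, with a median of 0.13. None of the 7 had separate groups, where 5.32% of all genes had them with the deletion higher. COX7, a small membrane subunit, had 9.25 and 10.38 in the deletion, against 8.71 and 10.32 in wild type. Its difference of 0.30 (SE 0.63) was 0.54 in replicate 1 and 0.06 in replicate 2. COX4 differed by 0.15 (SE 0.28), COX8 by 0.15 (SE 0.34), COX6 by 0.14 (SE 0.28) and COX9 by 0.12 (SE 0.26). COX5A, the subunit V isoform used when oxygen is present, had 11.06 and 11.01 in the deletion, against 11.12 and 11.06 in wild type. It is the one gene of the 59 with both deletion arrays below both wild type arrays, where 8.61% of all genes were, and its difference was -0.06 (SE 0.23).

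Among the assembly factors of complex IV, 9 of 10 were above 0, with a median of 0.09. COX17, the copper chaperone that supplies cytochrome oxidase, had 9.21 and 9.12 in the deletion, against 8.95 and 8.56 in wild type. All deletion values were above all wild type values, with a difference of 0.41 (SE 0.26). COX14, which acts with newly made Cox1, had 9.22 and 9.31 in the deletion, against 9.08 and 8.42 in wild type. Its difference of 0.51 (SE 0.30) was the largest of the 59 between genotypes, with wild type replicate 2 the lowest array, at 0.14 in replicate 1 and 0.89 in replicate 2. COX15, of heme A synthesis, was at -0.20 in replicate 1 and 0.34 in replicate 2, so its replicates disagreed in sign.

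For ATP synthase, 12 of 13 structural genes were above 0, with a median of 0.12. The 5 genes of the F1 head were all above 0, with a median of 0.21, and the 4 stator genes had a median of 0.06. ATP15, F1 subunit epsilon, had 10.87 and 11.00 in the deletion, against 10.58 and 10.74 in wild type. It was above 0 by 0.29 and 0.26 in the 2 replicates. No other structural gene of the enzyme had separate groups, where 5.32% of all genes had them with the deletion higher. ATP16, subunit delta, had 11.40 and 10.99 in the deletion, against 11.04 and 10.94 in wild type, a difference of 0.21 (SE 0.26). ATP1, subunit alpha, had 11.31 and 11.09 in the deletion, against 11.40 and 10.48 in wild type. Its sign differed between replicates, at -0.09 and 0.60, and wild type replicate 2 again stood low. ATP20 and ATP18, small membrane subunits, differed by 0.26 (SE 0.32) and 0.22 (SE 0.36), with overlapping groups. Of the 6 assembly factors, ATP12 and ATP25 had separate groups with the deletion higher, where 5.32% of all genes did. ATP12, the chaperone of subunit alpha, had 8.95 and 8.85 in the deletion, against 8.63 and 8.37 in wild type, a difference of 0.40 (SE 0.24). ATP25, which stabilises the mitochondrial OLI1 transcript, had 8.33 and 8.34 in the deletion, against 8.06 and 8.16 in wild type, a difference of 0.23 (SE 0.23). The other 4 had no common direction, with ATP11, the chaperone of subunit beta, at 0.33 and ATP10 at -0.18.

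By genotype, structural subunits and assembly factors had medians close to each other. Their median log2 differences were 0.12 over 39 genes and 0.10 over 20 genes, 0.0179 apart. In replicate 1 the structural median was 0.10 and the assembly median 0.08, and in replicate 2 they were 0.07 (structural) and 0.19 (assembly), so the order turned. The distance also turned to -0.329 without deletion replicate 2 and to -0.322 without wild type replicate 1, and was 0.175 without wild type replicate 2. All genes had a median of 0.04 in replicate 1 and -0.10 in replicate 2. Relative to these, the 59 genes were at 0.07 and 0.21. Both deletion arrays were above both wild type arrays for 9 of 59 genes, where 5.32% of all genes were. These were CYC1, CYT1, NDE1, ATP15, ATP12, ATP25, SDH7, COX14 and COX17, 4 structural and 5 assembly genes.

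**Figure D2:**
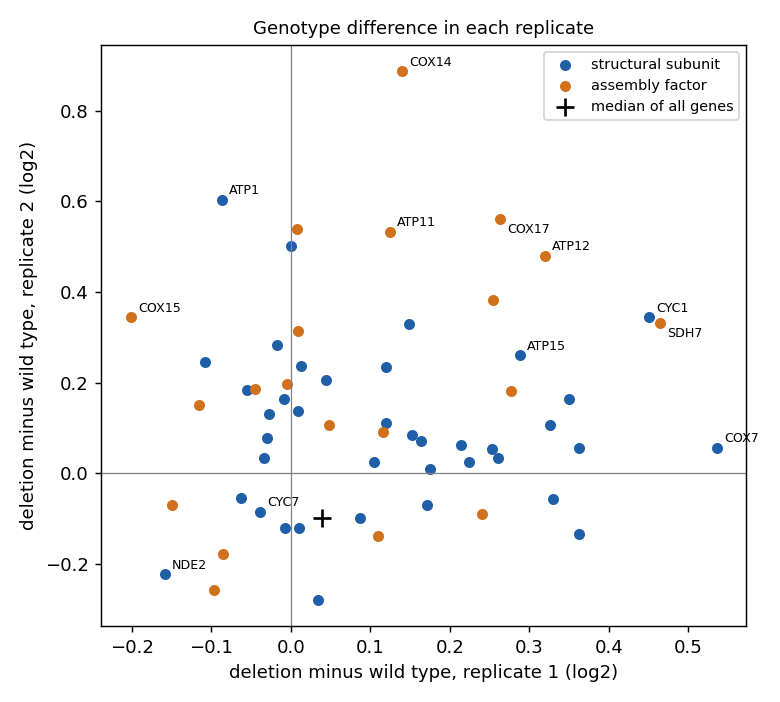
Deletion minus wild type (log2) in replicate 1 (horizontal axis) and replicate 2 (vertical axis) for the 59 genes, structural subunits in blue and assembly factors in orange, with the median of all genes as a cross. Most points lie higher than the cross on the vertical axis, CYC1, SDH7 and ATP12 are well above 0 on both axes, and COX14, ATP1 and ATP11 are high in replicate 2 with small values in replicate 1.

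Across the 59 genes the genotype differences of the 2 replicates had Spearman rho = 0.09 and Pearson r = 0.11, a description over genes, which are not independent replicates. For the 20 assembly factors rho was 0.41 and for the 39 structural genes -0.06. Wild type replicate 2 held the lowest of the 4 values in 28 of 59 genes and in 12 of 20 assembly factors, against 24.7% of all genes. Over all genes, deletion replicate 2 was the array most often lowest, in 39.9%, against 8 of the 59. The position of the 59 relative to all genes in replicate 2 thus involves both arrays. Among the 39 structural genes, wild type replicate 1 and wild type replicate 2 were each lowest in 16. Without wild type replicate 2, 31 of 59 genes were above 0 and their median was 0.02, against 0.12 with it, and the median of all genes was then -0.06. The median of the 59 was 0.19 (39 above 0) without wild type replicate 1, against 0.002 for all genes. Without deletion replicate 1 it was 0.07 (39 above 0), against -0.12 for all genes. Without deletion replicate 2 it was 0.17 (42 above 0), against 0.07 for all genes.

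Stress genes had values on the same side. All 10 general stress markers were above 0 in the deletion, with a median log2 difference of 0.26, 0.17 in replicate 1 and 0.42 in replicate 2. The log2 of their summed linear signal was 12.58 and 11.88 in the deletion, against 12.39 and 11.36 in wild type, lowest in wild type replicate 2. HSP26 alone of the 10 was below background in some arrays. Their part in the respiratory values was not tested. The 10 glucose-repressed markers gave no such pattern. 2 of 10 were above 0, with a median of -0.20. Their median was 0.04 in replicate 1, with 6 above 0, and -0.35 in replicate 2, with 2 above 0. The log2 of the summed signal was 10.17 and 9.70 in the deletion, against 10.15 and 10.03 in wild type. 6 of the 10 were above background in all 4 arrays, and SIP4 in none. PCK1, 1 of the 2 above 0, was above background in 1 array. The part of these genes in the respiratory values was not tested either. In these bulk samples, fewer cells in a state and less RNA per cell cannot be told apart.

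The replicates, which carry different date tags, gave 17 calls among the same 59 genes, a share near that of all genes, 1550 of 5449. The genotypes gave 0. In replicate 2, against replicate 1, 8 small subunits of complexes III and IV and of ATP synthase rose, while assembly factors and 2 subunits of complex II fell. In limma over all genes, 8 of 59 were higher and 9 lower in replicate 2 at an adjusted p under 0.05, where 8.75% of all genes were higher and 19.7% lower. All 8 higher genes were structural and 7 of the 9 lower ones were assembly factors. Thus 8 of 39 structural genes (20.5%) and 0 of 20 assembly factors rose, while 2 of 39 (5.13%) and 7 of 20 (35%) fell. After each array was centred on its gene median, 10 were higher and 5 lower, against 14% and 15.2% of all genes. The 10 hold all 8 and the 5 are among the 9. With the genotype as a term, 8 were higher and 5 lower, against 6.15% and 13.2% of all genes. Without wild type replicate 1, the median replicate difference was -0.0001 for structural genes and -0.41 for assembly factors, against -0.15 for all genes. Without deletion replicate 1, these medians were 0.08, -0.45 and -0.11. Both replicate 2 arrays lay above both replicate 1 arrays for 19 of 59 genes, 18 of them structural, and below for 28, against 23.4% and 46% of all genes. The difference was above 0 in 23 of 59, against 37.4% of all genes. The replicate number goes with a date tag, and the labels do not say which step the tag dates. Culture, RNA preparation and hybridisation cannot be told apart.

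**Figure D3:**
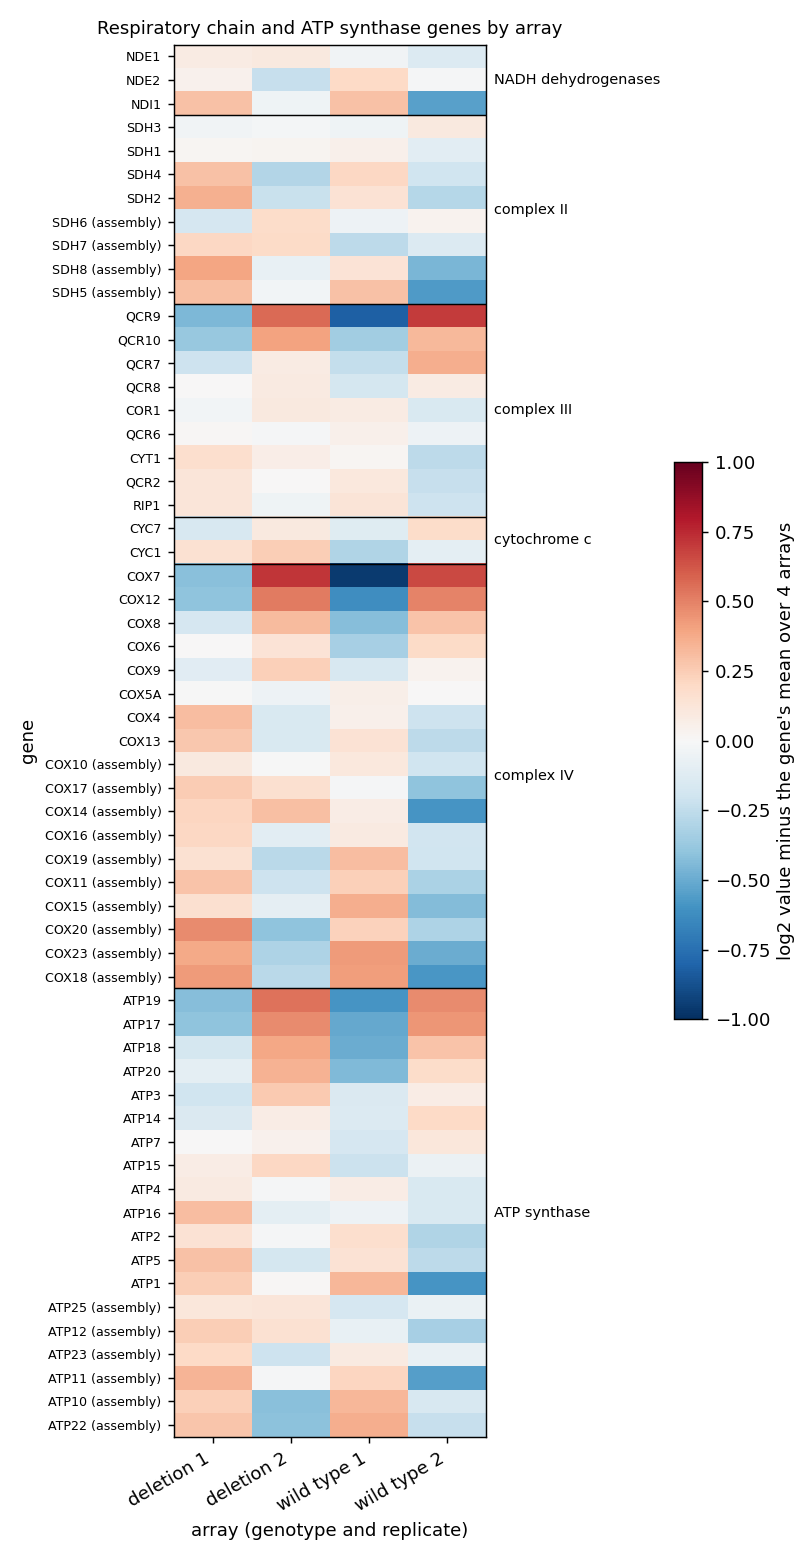
Log2 value minus the gene's own mean over the 4 arrays (colour, from -1 to 1) for each of the 59 genes (rows, ordered by complex, class and replicate difference) in the 4 arrays (columns). Red cells in both replicate 2 arrays mark QCR9, QCR10, COX7, COX12, ATP19 and ATP17, and blue cells in the same arrays mark COX18, COX20, COX23, ATP22 and ATP10.

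COX7 had log2 values of 10.38 and 10.32 in replicate 2 (deletion and wild type), against 9.25 and 8.71 in replicate 1. Its difference of 1.37 (SE 0.20, adjusted p = 0.0114), or 2.59-fold, was the largest of the 59. COX12, another small subunit of cytochrome oxidase, had 10.56 and 10.54 in replicate 2 (deletion and wild type), against 9.64 and 9.42 in replicate 1, a difference of 1.02 (SE 0.14, adjusted p = 0.0104). The groups were far apart in both genes. COX8 rose by 0.60 (SE 0.14, adjusted p = 0.0291). In complex III, QCR9 had 11.16 and 11.29 in replicate 2 (deletion and wild type), against 10.14 and 9.78 in replicate 1, a rise of 1.27 (SE 0.16, adjusted p = 0.0104), and QCR10 rose by 0.72 (SE 0.12, adjusted p = 0.0134). Both are small accessory subunits. The larger core genes of the complex did not pass, with COR1 at -0.05 (SE 0.14) and QCR2 at -0.22 (SE 0.14). In ATP synthase, 3 of 4 small membrane subunits rose, where 8.75% of all genes did. ATP19 (subunit k) had 11.55 and 11.48 in replicate 2 (deletion and wild type), against 10.57 and 10.41 in replicate 1. Its rise was 1.02 (SE 0.13, adjusted p = 0.0104). ATP17 (subunit f) rose by 0.91 (SE 0.12, adjusted p = 0.0105) and ATP18 (subunit i/j) by 0.67 (SE 0.15, adjusted p = 0.0278). ATP20 (subunit g) had 0.54 (SE 0.16) and missed the threshold at adjusted p = 0.0543. None of the 5 F1 genes passed. ATP1 was at -0.57 (SE 0.21) and ATP2, subunit beta, at -0.31 (SE 0.14), while ATP3, subunit gamma, was at 0.34 (SE 0.13). ATP17, ATP18, COX8 and QCR10 missed the threshold without wild type replicate 1. Without deletion replicate 1, ATP18, COX8 and QCR10 did, and without deletion replicate 2, ATP18 did.

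For the 10 assembly factors of complex IV, the mean replicate difference was above 0 in 0, against 37.4% of all genes. COX14 was the exception within a genotype, at 0.09 in the deletion. 5 of the 10 were called lower, against 19.7% of all genes, and 3 after centring, against 15.2%. COX18, which inserts Cox2 into the inner membrane, had 7.34 and 7.02 in replicate 2 (deletion and wild type), against 8.03 and 8.03 in replicate 1. It fell by 0.85 on the log2 scale (SE 0.15, adjusted p = 0.015). COX23, a small protein of the intermembrane space, fell by 0.81 (SE 0.13), COX20, a chaperone of Cox2, by 0.71 (SE 0.14), COX11, of copper delivery, by 0.52 (SE 0.12) and COX19 by 0.46 (SE 0.13). The adjusted p of these 4 ran from 0.0127 to 0.0431. For ATP synthase, ATP22 and ATP10, both of Fo assembly, fell by 0.64 (SE 0.13) and 0.57 (SE 0.14). ATP12 was at -0.18 (SE 0.20) and did not pass. In complex II, SDH2 fell by 0.50 (SE 0.14) and SDH4 by 0.49 (SE 0.12). Adjusted p ran from 0.0209 to 0.0399 over ATP22, ATP10, SDH2 and SDH4. SDH2, SDH4, COX11 and COX19 missed the threshold after centring and with the genotype as a term. After quantile normalization ATP10, COX11, COX19 and SDH2 missed it. COX19 and SDH2 missed it without wild type replicate 2, and ATP10, COX19, SDH2 and SDH4 without deletion replicate 2. All 9 missed it without wild type replicate 1 and without deletion replicate 1.

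Cytochrome c and the NADH dehydrogenases held no call between replicates. CYC1 was at 0.15 (SE 0.20) and CYC7 at 0.29 (SE 0.12), and neither passed. NDI1 was at -0.59 (SE 0.19), NDE2 at -0.24 (SE 0.14) and NDE1 at -0.05 (SE 0.14).

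The median gene was at -0.13 between replicates, and at -0.02 after centring. Relative to the median gene, the structural genes had a median of 0.21 and the assembly factors of -0.36, with 25 of 39 and 3 of 20 above it. The distance between the 2 medians was 0.57. It was 0.39 within the deletion and 0.66 within wild type, which share no array. In each genotype the structural median was above the assembly median. The replicate differences of the 2 genotypes had Spearman rho = 0.87 over the 59 genes, against 0.74 over all genes. 54 of 59 had the same sign in both genotypes.

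**Figure D4:**
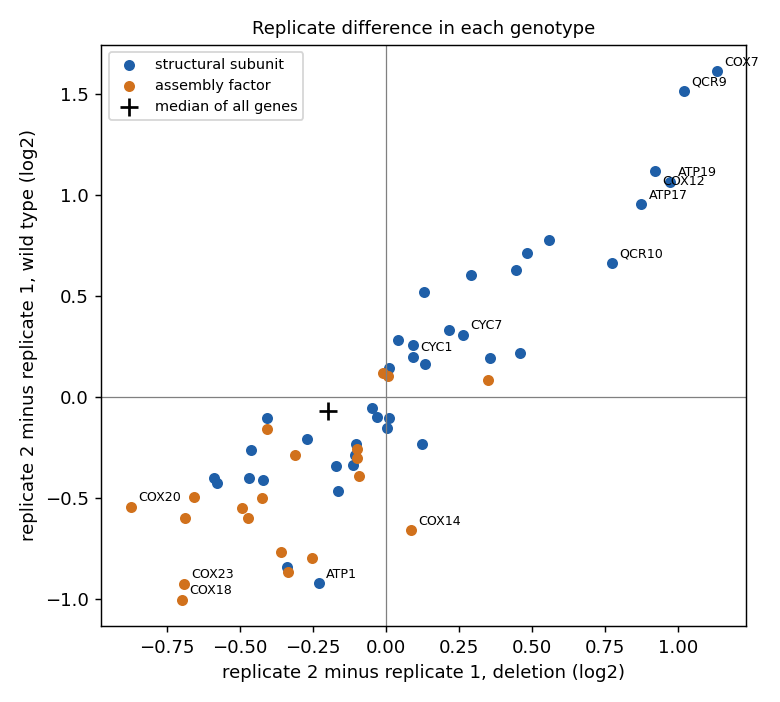
Replicate 2 minus replicate 1 (log2) in the deletion (horizontal axis) and in wild type (vertical axis) for the 59 genes, structural subunits in blue and assembly factors in orange, with the median of all genes as a cross. Small structural subunits such as COX7, QCR9 and COX12 lie at the upper right, most assembly factors at the lower left, and COX14 stands off the diagonal.

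Coding length moved with the replicate difference among structural genes. Lengths are those of RefSeq's R64 table, introns included, and the limit of 500 nucleotides was chosen after the values had been seen. COX7 (183 nucleotides), ATP19 (207), COX12 (252) and ATP17 (306) rose. COX9 (180) and ATP15 (189) are as short, and at 0.28 and 0.15 did not pass. Over the 39 structural genes, Spearman rho between length and the replicate difference was -0.70. Over the 20 assembly factors it was -0.20 and over all genes 0.03. The 22 structural genes under 500 nucleotides had a median log2 difference of 0.31, and the 17 longer ones -0.22. The 9 short assembly factors had -0.30 and the 11 long ones -0.52. All measured genes under 500 nucleotides had a median of 0.0031 and the others -0.15. The 8 genes that rose were all among the 22 short structural genes, 36.4% of these. Of all measured genes, 17.9% of those under 500 nucleotides rose and 7.49% of the others. COX17 and COX14, at 210 and 213 nucleotides, were at -0.24 and -0.29 and did not pass. The part of length in the result was not tested.

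**Figure D5:**
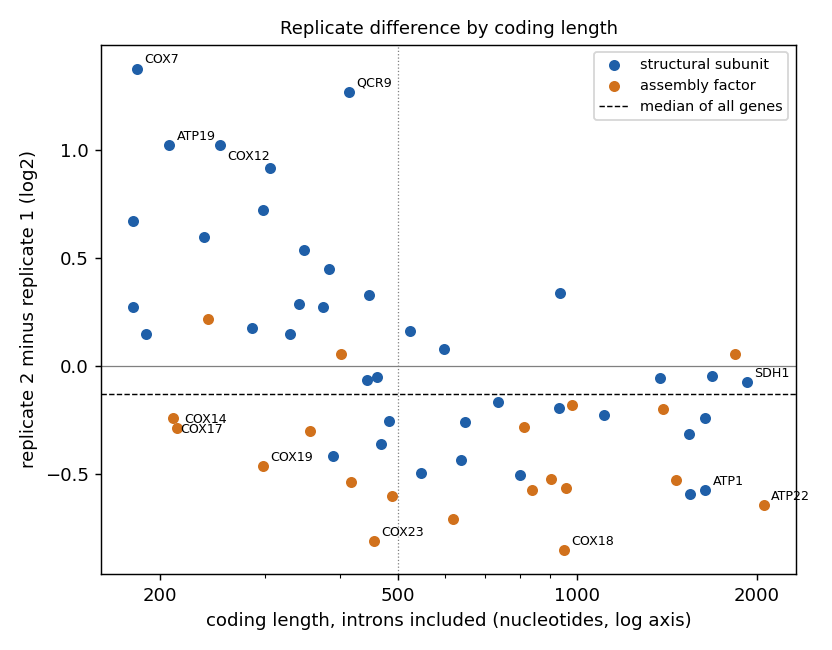
Replicate 2 minus replicate 1 (log2, vertical axis) against coding length in nucleotides (horizontal log axis) for the 59 genes, structural subunits in blue and assembly factors in orange, with the median of all genes dashed and 500 nucleotides dotted. Short structural genes reach 1.37, while short assembly factors stay at or below 0.22.

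The stress markers also followed the replicates, with 6 of 10 lower in replicate 2, against 19.7% of all genes, and a median of -0.84. TPS1, of trehalose synthesis, fell by 1.44 (SE 0.20) and DDR2 by 1.17 (SE 0.15). HSP12 was the 1 marker of the 10 above 0, at 0.45 (SE 0.38), and did not pass. Of the 10 glucose-repressed markers, 2 were lower and 0 higher, namely FBP1, above background in 2 arrays, and ICL1, a share near the 19.7% of all genes that were lower. The part of these in the respiratory values was not tested.

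Other genes of the pathway were described in the same fits. In 43 further assembly factors and translational activators, 0 passed between genotypes, where 30 were above 0 with a median of 0.09. Between replicates, 2 were higher and 12 lower in replicate 2, where 8.75% and 19.7% of all genes were. After centring, 4 were higher and 7 lower, where 14% and 15.2% of all genes were. COA4 fell by 1.12 (SE 0.14) and CMC2 rose by 0.97 (SE 0.16). INA22 and FMC1, with genotype differences of 0.38 and 0.38, lie on chromosome IX, and without them the median was 0.08. The 10 coenzyme Q genes had a genotype median of 0.06, with COQ6 at 0.28 (SE 0.36) and COQ1 at 0.20 (SE 0.35). 6 of 10 fell in replicate 2 and 0 rose, where 19.7% and 8.75% of all genes did, with COQ10 at -1.06 (SE 0.13) and COQ4 at -0.97. Of the 9 CCAAT-box and oxygen regulators, 0 passed between genotypes, with HAP2 at 0.17 (SE 0.30) and HAP1 at -0.13 (SE 0.27). HAP4, the activating subunit of the Hap complex, had 10.13 and 10.02 in deletion replicates 1 and 2, against 10.22 and 9.70 in wild type replicates 1 and 2, again lowest in wild type replicate 2. In replicate 2, 2 of the 9 fell and 1 rose, near the shares of all genes, 19.7% and 8.75%. HAP5 and TUP1 fell by 0.94 (SE 0.12) and 0.70 (SE 0.13), and MOT3 rose by 0.67 (SE 0.14).

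The 4 regulators and dimer factors of ATP synthase were all above 0 in both replicates of the genotype comparison, with a median of 0.18 and no call. INH1, the inhibitor of ATP hydrolysis, was at 0.25 (SE 0.23) and TIM11, subunit e, at 0.22 (SE 0.24). In replicate 2, 1 of the 4 factors, STF2, fell, by 1.17 (SE 0.13), and 0 rose, where 19.7% and 8.75% of all genes did. The supercomplex factors RCF1 and RCF2 were at 0.34 (SE 0.32) and 0.07 (SE 0.25) between genotypes. Of the 4 ATP/ADP and phosphate carriers, PET9 was at 0.25 (SE 0.46) and AAC1 at 0.15 (SE 0.24) between genotypes. In replicate 2, 2 of the 4 carriers fell, PET9 by 0.89 and AAC3 by 0.86, against 19.7% of all genes. Of 3 other electron donors to the chain, 0 passed in either comparison, with CYB2 at -0.12 and GUT2, on chromosome IX, at 0.32.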

How the data were processed

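The deposited log2 values per probe set are RMA values from affy, according to the authors (per the submitters' processing notes). RMA equalises array distributions, so differences are relative to other transcripts. The sources used here give neither software versions nor a genome build. Per the labels' protocols, double-stranded cDNA was labelled, so sense and antisense transcripts are not distinguished. Arrays have no read depth, and their number, 2 per group, limits the precision.

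Of 10928 probe sets, 7244 carried 1 gene symbol, 1 several and 3683 none. 5498 were placed on genes of RefSeq's R64 table, with 12 symbols updated. Probe sets were averaged for 47 genes, leaving 5449. The 1746 fission yeast probe sets gave the background. Of the R64 lengths, 97% were multiples of 3.

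limma 3.58.1 (R 4.3.3; lmFit, eBayes) compared deletion with wild type, and replicate 2 with replicate 1, over the 4 arrays without covariates. Tests were two-sided, and Benjamini-Hochberg adjustment ran over all 5449 genes, with a threshold of 0.05. Same-numbered arrays share a date tag in the labels, which pairs them. Their deviations from the group means correlated across genes (r = 0.747). The members and lists were chosen with earlier results of these data known.

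Named members were, per complex, up to 5 structural genes and 2 assembly factors with the smallest p between genotypes and the 2 with the smallest p between replicates. Isoform pairs, COX5A, genes not above background and the 3 whose replicates were farthest apart were added, with up to 2 genes of each related list. Members that passed between replicates, COR1, SDH5, SDH6, ATP2, ATP3, ATP11, HAP4 and the list genes that passed were named after their values were seen. The fits were tested on simulated data. Alternatives were the replicate block or genotype term, a filter on dim genes, the brightest probe set, centring, quantile normalization, a trended robust prior, no chromosome IX genes, and each array left out. Promoter motifs were not searched.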

Additional observations from a re-analysis of the deposited data

Results flagged for a closer look

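For 5 of the 59 genes, the difference between replicate 2 and replicate 1 had opposite signs in the 2 genotypes. Each genotype has 1 array per replicate, so the difference between them was not tested. COX14, which acts with newly made Cox1, had a replicate difference of 0.09 in the deletion and -0.66 in wild type, a log2 distance of 0.747. COR1, a core subunit of complex III, had 0.12 in the deletion and -0.23 in wild type, a distance of 0.354. The distance was 0.159 for SDH1 (0.01 in the deletion and -0.15 in wild type) and 0.115 for NDE1 (0.01 in the deletion and -0.10 in wild type). For SDH7 it was -0.131, from -0.01 in the deletion and 0.12 in wild type. Over all 5449 genes, 4174 had the same sign in both genotypes. No group has the 4 arrays that a search for single outlying samples needs.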

How the results depend on the processing

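The replicate block changed no call between genotypes and gave 0 calls over all genes, with 156 at an unadjusted p under 0.05. The other settings that kept all 4 arrays also gave 0, with 8 to 11 at an unadjusted p under 0.05. With 1 array left out, limma gave 0 to 3 calls over all genes, 3 without wild type replicate 1 and 1 without wild type replicate 2. Among the 59 genes there were 0 in each of these settings. The structural minus assembly distance between genotypes, 0.0179, ran from -0.329 to 0.175 with 1 array left out, and was -0.322 without wild type replicate 1. Such fits mix genotype with the date tag, and a lone array is assumed to vary like the other group.

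Between replicates, 1550 genes passed, 477 higher and 1073 lower. With the genotype as a term 335 were higher and 721 lower, after centring 761 and 827, and after quantile normalization 762 and 756. The count ran from 290 to 1729 with 1 array left out, and was 341 without wild type replicate 1. Among the 59, the count ran from 13 to 25 with all arrays, the most with the trended robust prior, and from 4 to 21 with 1 left out. After quantile normalization 12 of the 59 were higher and 5 lower. The structural minus assembly distance ran from 0.405 to 0.534 with 1 array left out, against 0.569 with all. Over the named genes and alternatives, 44 values lost and 20 gained a call between replicates, and no called value turned sign. The cause was not tested. NDE2 lies close to background, which limits its values.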
